A study of Homo sapiens with 8 samples.

Results

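The RNAs described here were the long noncoding RNAs of MDA-MB-157 cells that carry a systematic LINC or antisense symbol and were measurably present. MDA-MB-157 is an established human breast cancer cell line without estrogen receptor. A gene belonged if its symbol was LINC followed by digits, or ended in -AS and digits, and its mean over the 8 libraries was at least 1 CPM, the reads of a gene scaled to the size of the library. Of 978 genes with such symbols, 366 reached that level, among 21059 genes in the table. The 366 comprised 141 LINC RNAs and 225 antisense RNAs. They were thus chosen by their mean level over both groups: ZNF528-AS1, IL21-AS1 and LINC01638 lay just under the minimum at 0.988, 0.991 and 0.996 CPM, and LAMTOR5-AS1, ACVR2B-AS1 and PAN3-AS1 just over it at 1.008, 1.008 and 1.011 CPM. In 65 of the 366 only 1 group mean reached 1 CPM, so that the group with the higher level carried them over the minimum. A further 65 of the 978 were at 0 in every library.

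The study compared 5 mM glucose (low glucose, libraries LG1 to LG4) with 25 mM glucose (high glucose, HG1 to HG4), to learn how a diabetes-like glucose level changes gene expression in breast cancer cells. Cells were kept in low-glucose medium first, and the high glucose flasks were then switched to 25 mM for 48 hours, with no serum in either medium. No osmotic control is named among the labels of these 8 libraries, so glucose and osmolarity cannot be told apart in them. In some other experiments the study added mannitol to the control medium, and it reports no differences in the phenotypes it examined. The labels do not say whether the 4 flasks of a group were separate cultures of the line; p-values measure the spread between these libraries, which may be technical. The size of 1 read in the low values put the depth at about 9721600 to 12482500 reads per library, and 3 reads corresponded to 0.212 to 0.267 CPM. The high glucose libraries stood apart from the low glucose libraries in the number of genes at 1 CPM or more, 14111 to 14190 against 14364 to 14477, which bears on a minimum of 1 CPM. They also differed by length: annotated transcript length explained 1.60% to 6.91% of a high glucose library's deviation from the mean of all libraries, most in HG1, and 0.43% to 1.21% of a low glucose library's. The line's markers fitted the label in part: ESR1, the estrogen receptor, averaged 0.121 CPM with low and 0.0598 CPM with high glucose, and PGR, the progesterone receptor, 4.76 and 5.35 CPM. PTPRC, the common leukocyte marker, stayed at or under 0.178 CPM in every library, and ALB, a liver marker, at or under 0.364 CPM. Of the 13 cell type markers in the table, 4 rose and 4 fell: PECAM1, an endothelial marker, from 1.0001 to 2.13 CPM (adjusted p = 0.0078), EPCAM, CDH2 and ZEB1 by 0.54, 0.44 and 0.44 on the log2 scale, while KRT8, KRT18, VIM and FN1 had log2 changes of -0.57, -0.46, -0.47 and -0.52. Their part in the changes below was not tested. Fewer cells and less RNA per cell cannot be told apart in such bulk samples.

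LINC symbols are given to long RNAs transcribed from stretches between protein-coding genes, and -AS symbols to RNAs transcribed from the strand opposite a named gene. Such transcripts are mostly spliced and capped like messenger RNAs, lie at lower levels, and are often retained in the nucleus. Many start from the same open promoter as the gene on the other strand and run away from it, so that a pair of genes shares 1 regulatory region; others lie across the exons of their partner. Some act on the neighboring gene, some bind proteins or microRNAs, and for most no function is established.

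RefSeq start sites show how close some pairs are. For 269 of the 366 RNAs a promoter of 300 bases, from 250 bases before to 50 bases after the annotated start, was found in RefSeq on GRCh38.p14. The 6 below belong to RNAs with large or opposing changes, printed 5′ to 3′ on the RNA's own strand. Capitals mark matches on either strand to the E box (CACGTG), the AP-1 word TGANTCA, the CCAAT box, the GC box (GGGCGG), the TATA box (TATAAA) and the cyclic AMP response word (CRE), which reads TGACGTCA. UBA6-AS1 (chr4:67701028-67701327, plus strand), named UBA6-DT in RefSeq, starts 123 bases from UBA6 and runs away from it. TAF1A-AS1 (chr1:222589670-222589969, plus strand) and TAF1A start 13 bases apart on opposite strands. COX10-AS1 (chr17:14069409-14069708, minus strand), named COX10-DT in RefSeq, starts 46 bases from COX10 and runs away from it. ZNF295-AS1 (chr21:42008944-42009243, plus strand) had one of the largest rises, and PSMG3-AS1 (chr7:1569823-1570122, plus strand) and LINC00346 (chr13:110870259-110870558, minus strand; PRECSIT in RefSeq) were among the largest falls.
UBA6-AS1: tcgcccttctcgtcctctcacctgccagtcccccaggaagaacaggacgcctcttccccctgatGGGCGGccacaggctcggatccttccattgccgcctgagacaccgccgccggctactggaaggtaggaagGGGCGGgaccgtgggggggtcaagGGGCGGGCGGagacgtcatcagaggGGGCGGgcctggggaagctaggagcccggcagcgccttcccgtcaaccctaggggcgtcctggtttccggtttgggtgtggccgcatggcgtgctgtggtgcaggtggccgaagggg
TAF1A-AS1: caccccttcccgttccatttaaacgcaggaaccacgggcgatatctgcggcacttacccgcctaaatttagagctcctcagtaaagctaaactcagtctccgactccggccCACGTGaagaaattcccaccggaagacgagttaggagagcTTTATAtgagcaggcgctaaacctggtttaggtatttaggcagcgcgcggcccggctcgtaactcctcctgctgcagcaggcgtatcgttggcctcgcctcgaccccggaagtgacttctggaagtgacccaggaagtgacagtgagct
COX10-AS1: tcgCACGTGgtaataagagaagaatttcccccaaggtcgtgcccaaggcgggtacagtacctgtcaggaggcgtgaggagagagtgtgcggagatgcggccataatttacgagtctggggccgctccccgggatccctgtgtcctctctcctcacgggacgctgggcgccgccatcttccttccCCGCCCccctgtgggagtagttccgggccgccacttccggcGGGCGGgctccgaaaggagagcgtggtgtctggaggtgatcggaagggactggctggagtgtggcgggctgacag
ZNF295-AS1: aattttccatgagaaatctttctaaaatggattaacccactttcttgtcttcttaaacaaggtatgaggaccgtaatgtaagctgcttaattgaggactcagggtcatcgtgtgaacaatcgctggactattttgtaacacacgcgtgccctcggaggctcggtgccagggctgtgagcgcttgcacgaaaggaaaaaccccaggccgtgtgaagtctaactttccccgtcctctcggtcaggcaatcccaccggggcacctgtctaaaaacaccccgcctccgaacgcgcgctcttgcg
PSMG3-AS1: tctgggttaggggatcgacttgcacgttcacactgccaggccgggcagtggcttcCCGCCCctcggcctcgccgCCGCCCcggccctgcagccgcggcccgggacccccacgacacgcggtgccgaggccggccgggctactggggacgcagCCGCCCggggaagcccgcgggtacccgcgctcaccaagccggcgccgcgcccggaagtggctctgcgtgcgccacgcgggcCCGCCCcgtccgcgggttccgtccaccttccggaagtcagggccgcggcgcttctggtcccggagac
LINC00346: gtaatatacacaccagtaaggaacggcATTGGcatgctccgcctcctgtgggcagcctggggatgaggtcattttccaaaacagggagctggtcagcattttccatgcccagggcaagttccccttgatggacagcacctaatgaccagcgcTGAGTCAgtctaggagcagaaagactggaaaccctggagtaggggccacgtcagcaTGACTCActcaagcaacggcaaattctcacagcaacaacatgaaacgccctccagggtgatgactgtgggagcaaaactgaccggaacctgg
The UBA6-AS1 window held 5 GC boxes, PSMG3-AS1 4, and LINC00346 2 AP-1 matches with 1 CCAAT box. TAF1A-AS1 held 1 E box and 1 TATA box match, COX10-AS1 1 E box and 2 GC boxes, and ZNF295-AS1 none of the 6 words.

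High glucose went with lower levels of most of the RNAs that changed. Of the 366, 48 rose and 168 fell, and 150 did not pass the test (limma on log2(CPM + 1), Benjamini-Hochberg adjusted p under 0.05 over all 21059 genes). The background was high: 62.1% of all genes of at least 1 CPM passed, 29.5% higher and 32.6% lower, against 59.0% of the RNAs, 13.1% higher and 45.9% lower. Of all genes tested 46.8% passed, 22% higher and 24.8% lower. The median log2 change was -0.36 for the 366 and -0.04 for genes of at least 1 CPM. Values of log2(CPM + 1) understate the change of low genes, and every log2 change below is on that scale, high minus low glucose.

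**Figure D1:**
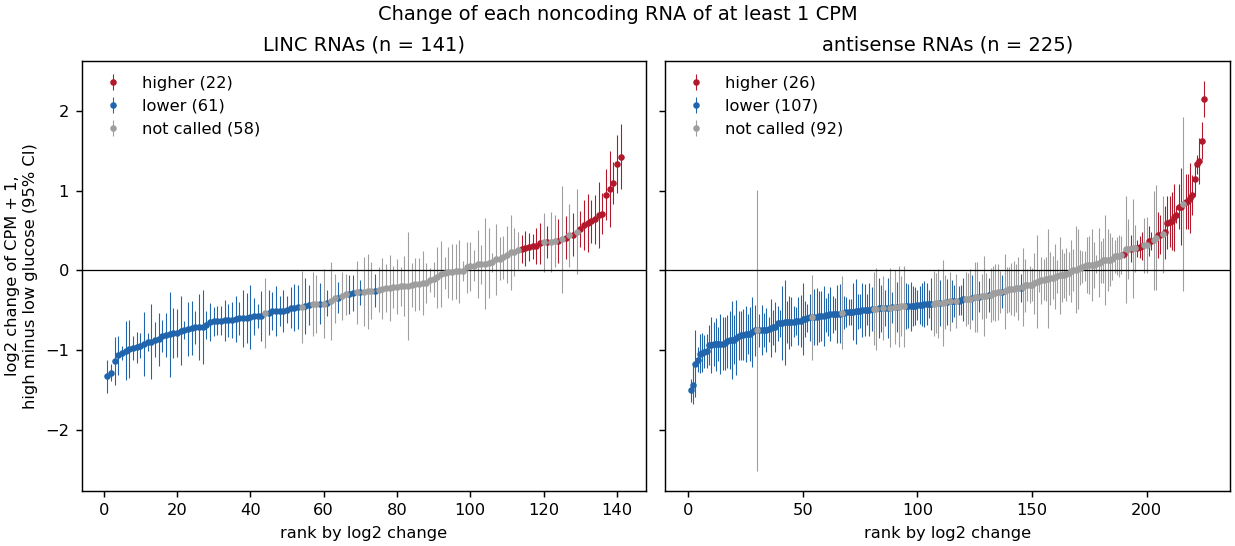
Each dot is 1 RNA, ranked by its log2 change of CPM + 1 (high minus low glucose, y axis, with the 95% confidence interval as a line), in panels for 141 LINC RNAs and 225 antisense RNAs. Blue dots (61 LINC, 107 antisense) were called lower and red dots (22 and 26) higher; the widest interval belongs to DDIT4-AS1, from -2.52 to 1.01.

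LINC and antisense RNAs showed the same lean. Among LINC RNAs 22 rose and 61 fell, with a median log2 change of -0.27; among antisense RNAs 26 rose and 107 fell, with a median of -0.40. The difference between these classes was not tested. In 204 of the 366 (55.7%) the 4 low and 4 high glucose libraries did not overlap, against 60% of genes of at least 1 CPM. Leaving out the 65 RNAs carried by 1 group gave 37 higher and 136 lower of 301, with a median of -0.35. The annotation types 743 further genes of at least 1 CPM as long noncoding RNAs without such a symbol; 15.5% of them rose and 32.2% fell, with a median of -0.20. Protein-coding genes of at least 1 CPM passed in 63.9%, split nearly evenly into 31.4% higher and 32.5% lower, and their groups did not overlap in 61.9%. Under quantile normalization of the libraries the split of the 366 was 60 higher and 125 lower, so that 67.6% of the called RNAs were lower in place of 77.8%.

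The share of rises and falls varied with level. Of 138 RNAs between 1 and 2 CPM, 14 rose and 55 fell; of 108 between 2 and 5 CPM, 9 rose and 50 fell; of 102 between 5 and 20 CPM, 17 rose and 56 fell. At 20 CPM or more 8 of the 18 RNAs rose and 7 fell (44.4% and 38.9%), near the 39.2% and 30.8% of all genes at that level. All genes of the same levels also leaned lower below 20 CPM, by less: 13.1% rose and 26.5% fell between 1 and 2 CPM, against 10.1% and 39.9% of the RNAs, and 22.8% rose and 38.0% fell between 5 and 20 CPM, against 16.7% and 54.9%. The 65 RNAs carried over the minimum by 1 group, with a median of 1.17 CPM, were not left out of these counts. Of them 11 were called higher and 32 lower, so the lowest level in particular rests in part on them. These shares are descriptions without a test.

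**Figure D2:**
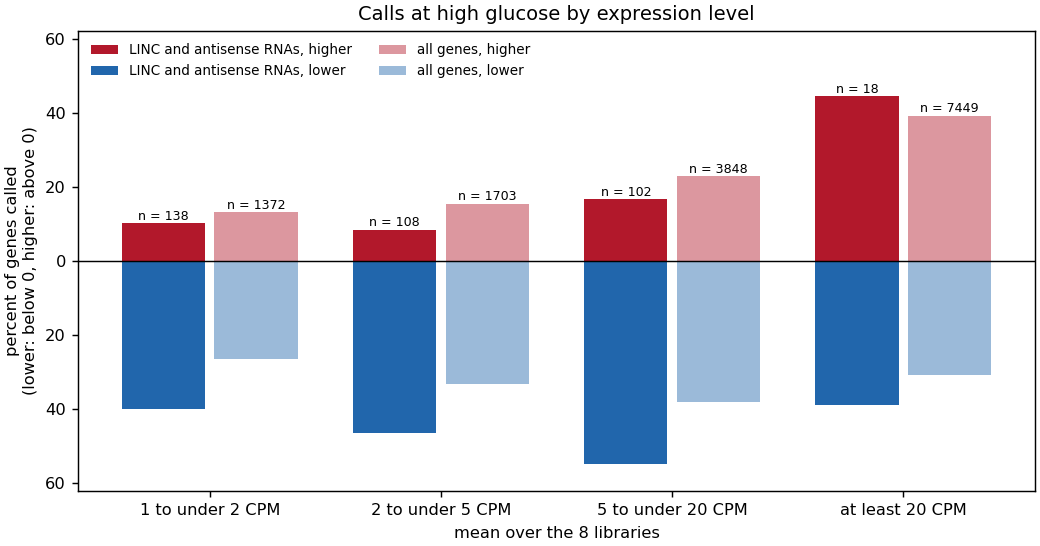
Percent of genes called higher (above 0) or lower (below 0) at high glucose, by mean CPM over the 8 libraries, for the LINC and antisense RNAs (dark bars) and for all genes at that level (pale bars). The dark blue bars reach 39.9%, 46.3% and 54.9% below 20 CPM, deeper than the pale blue bars beside them at 26.5%, 33.1% and 38.0%.

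After the trend with transcript length was removed, 51 RNAs rose and 150 fell of the 363 with an annotated length. Across the 363, the log2 change had a Spearman rho of -0.13 with the length of the longest annotated transcript and -0.16 with its GC content, as a description; over genes of at least 1 CPM the values were 0.06 and -0.17. All points come from the same 8 libraries.

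IGFL2-AS1, transcribed opposite a gene of the insulin growth factor-like family, had the largest rise. It stood at 3.58, 4.47, 3.31 and 3.35 CPM in LG1 to LG4 and at 17.6, 19.2, 20.6 and 21.3 CPM in HG1 to HG4, a 5.35-fold difference of the means, with no overlap. Its log2 change was 2.15 ± 0.098 (SE, n = 4 per group; adjusted p = 5.27e-06 by limma). ZNF295-AS1, named for the zinc finger gene now called ZBTB21, went from 1.42, 0.994, 1.19 and 1.09 CPM to 5.93, 6.54, 5.53 and 4.89 CPM, with no overlap. That was a log2 change of 1.63 (adjusted p = 1.81e-05). LINC02019, 1 of the 65 RNAs carried over the minimum by 1 group, was near the limit of detection at low glucose, at 0.333, 0.497, 0 and 0.0728 CPM, of which LG3 and LG4 lay under 3 reads, and reached 2.54, 2.63, 1.48 and 2.49 CPM at high glucose, which is given without a test because its high glucose values made it a member.

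Antisense RNAs at a higher level rose with little spread. UBA6-AS1, which starts beside the ubiquitin-activating enzyme gene UBA6, went from 9.59, 8.82, 8.49 and 8.74 CPM to 25.3, 24.5, 23.4 and 22.5 CPM (log2 change 1.33, adjusted p = 3.08e-06). ALOX12-AS1, opposite the arachidonate lipoxygenase gene ALOX12, went from 10.9, 9.03, 8.24 and 10.6 CPM to 23.9, 22.6, 21.2 and 22.4 CPM (log2 change 1.14, adjusted p = 5.40e-05). ZNF433-AS1 went from 7.13, 8.35, 9.81 and 8.79 CPM to 25.9, 22.4, 19.8 and 26.7 CPM (log2 change 1.37, adjusted p = 9.80e-05). In all 3 the lowest high glucose library lay above the highest low glucose library, as the choice of these RNAs required. Their sense genes did not move alike: UBA6 rose by less, ZNF433 did not pass the test (adjusted p = 0.58) and changed by less than its antisense RNA (ratio change 1.30 (95% CI, 1.07 to 1.52; adjusted p = 7.75e-06)), and ALOX12 averaged 0.547 CPM over the libraries.

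LINC RNAs among the 10 largest rises included LINC00641, at 3.001, 2.73, 2.63 and 2.19 CPM and then 6.21, 7.41, 9.90 and 9.60 CPM (log2 change 1.34, adjusted p = 3.48e-04). LINC01128 was at 13.6, 13.3, 10.3 and 10.9 CPM in low and 23.4, 29.2, 26.1 and 28.4 CPM in high glucose (log2 change 1.10, adjusted p = 1.84e-04). LINC01311 and LINC01134 completed the 10, with log2 changes of 1.02 and 0.95 (adjusted p = 9.98e-04 for LINC01134). Both had a low glucose mean close to 1 CPM; that of LINC01311, 0.968 CPM, lay under the minimum, so its high glucose values carried it and no p is given. In all, 9 of the 48 RNAs that rose did so by at least 1 on the log2 scale, against 477 of the 4241 genes of at least 1 CPM that rose. Without the RNAs carried over the minimum by 1 group, it was 7 of 37.

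PSMG3-AS1, opposite the proteasome assembly chaperone gene PSMG3, had the largest fall. It stood at 31.5, 32.8, 34.0 and 34.8 CPM at low and at 10.5, 10.1, 11.5 and 12.1 CPM at high glucose, 3.01-fold lower in the mean and with no overlap. Its log2 change was -1.51 ± 0.061 (SE, n = 4 per group; adjusted p = 3.54e-06). PSMG3 itself was at 59.7, 57.4, 61.4 and 60.2 CPM and 70.4, 60.4, 59.8 and 50.4 CPM, ranges that overlapped, and did not pass the test (log2 change 0.0045). The starts of the 2 genes lie 41 bases apart in the annotation, and the log2 ratio of antisense RNA to sense gene changed by -1.51 (95% CI, -1.82 to -1.21; adjusted p = 1.49e-05).

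**Figure D3:**
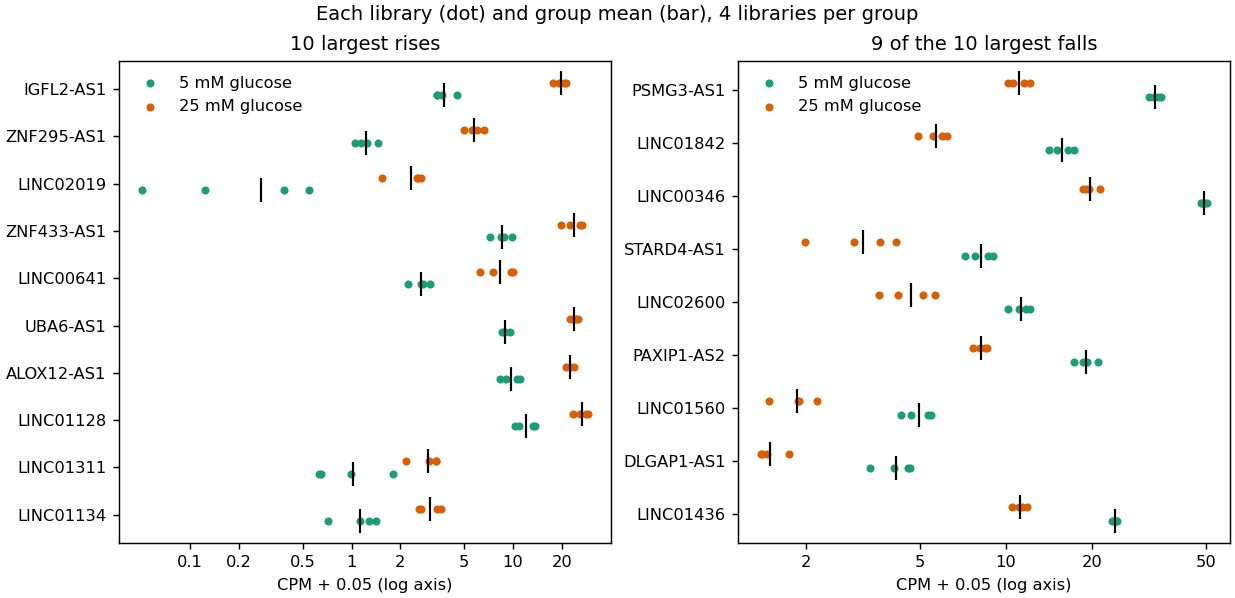
CPM of each library (dots, log axis after adding 0.05 CPM; green for 5 mM and orange for 25 mM glucose) and group mean (bars) for the 10 largest rises and 9 of the 10 largest falls. No pair of groups overlaps, because only RNAs without overlap were chosen. IGFL2-AS1 moves from between 3.31 and 4.47 CPM to between 17.6 and 21.3 CPM, and LINC02019 has the widest spread at low glucose, from 0 to 0.497 CPM.

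LINC00346 fell with little spread, from 50.5, 48.5, 49.8 and 48.0 CPM at low to 18.6, 19.5, 18.97 and 21.3 CPM at high glucose. Its log2 change was -1.29 ± 0.044 (SE; adjusted p = 2.00e-06). LINC01436 behaved alike, with 23.4, 24.3, 23.8 and 24.3 CPM and 11.3, 11.8, 10.5 and 11.02 CPM and a log2 change of -1.04 ± 0.040 (SE; adjusted p = 2.95e-06). In both, every high glucose library was under every low glucose library by a margin wider than the spread within either group. LINC01842 fell from 17.2, 16.4, 14.1 and 15.1 CPM to 5.93, 5.50, 6.19 and 4.89 CPM (log2 change -1.33, adjusted p = 2.37e-05). LINC02600 and LINC01560 fell by 1.14 and 1.07 on the log2 scale (adjusted p = 3.17e-04 and 1.70e-04).

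PAXIP1-AS2, opposite the gene of a DNA damage response adaptor, fell from 18.5, 19.2, 20.9 and 17.2 CPM to 8.07, 7.62, 8.39 and 8.52 CPM (log2 change -1.12, adjusted p = 1.50e-05). PAXIP1 was at 15.6 ± 0.836 CPM and 16.2 ± 1.18 CPM (SD, n = 4; adjusted p = 0.53), and the log2 ratio changed by -1.18 (95% CI, -1.41 to -0.94; adjusted p = 1.50e-05). STARD4-AS1, beside the cholesterol transfer protein gene STARD4, went from 8.61, 8.96, 7.12 and 7.71 CPM to 1.92, 3.57, 4.06 and 2.88 CPM (log2 change -1.17, adjusted p = 0.0014). DLGAP1-AS1 fell by 1.05 on the log2 scale (adjusted p = 1.62e-04), while DLGAP1, a synaptic scaffold gene, averaged 0.267 CPM. In all, 14 of the 168 RNAs that fell did so by at least 1 on the log2 scale, against 514 of the 4686 genes of at least 1 CPM that fell. Without the RNAs carried over the minimum by 1 group, it was 13 of 136.

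Levels between RNAs were compared per kilobase of the longest annotated transcript. Among the 10 highest, SVIL-AS1 led with 118 CPM per kb, followed by LINC00680 with 48.2, but their annotated transcripts on GRCh37 are only 122 and 181 bases long and lie wholly within sequence shared with other genes. The same holds for LINC01145, with 143 bases and 13.1 CPM per kb, and 62.1% of the words of LINC00888 (19.2 CPM per kb) are shared; reads of these 4 may belong to near-identical copies. FGD5-AS1 (29.8 CPM per kb), LINC00221 (26.3), THAP9-AS1 (22.5) and OIP5-AS1 (18.5) were the highest of those with longer annotated transcripts. LINC01436 (14.1) and SLC9A3-AS1 (12.7) completed the 10.

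These abundant RNAs differed in their changes. LINC00221, LINC00680, LINC00888 and LINC01145 did not pass the test, while LINC01436 had a log2 change of -1.04 and SLC9A3-AS1 of -0.87. FGD5-AS1 was at 104, 106, 107 and 107 CPM in low and 121, 121, 120.0 and 124 CPM in high glucose (log2 change 0.20, adjusted p = 9.50e-05). OIP5-AS1, known as Cyrano and for pairing with microRNA miR-7, was at 149, 149.9, 148 and 144 CPM and 160.1, 186, 183 and 196 CPM (log2 change 0.29, adjusted p = 0.0059). THAP9-AS1 rose more, from 48.1, 46.6, 46.7 and 47.4 CPM to 75.9, 71.1, 81.9 and 80.1 CPM (log2 change 0.70, adjusted p = 2.06e-05), while THAP9, related to a transposase, was at 5.75 and 5.33 CPM (adjusted p = 0.58; ratio change 0.79 (95% CI, 0.53 to 1.06; adjusted p = 2.82e-04)). LINC00221 was at 46.4 ± 2.89 and 49.7 ± 1.84 CPM (SD, n = 4; adjusted p = 0.15), with overlapping groups.

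The change of each antisense RNA was next set beside that of the gene it is named for. Of the 225 antisense RNAs, 214 had a sense gene in the table and 193 a sense gene of at least 1 CPM; 175 of these 193 antisense RNAs had a lower mean CPM than their sense gene. Both genes passed the test in 77 pairs, of which 42 went the same way (10 both higher, 32 both lower) and 35 opposite ways. In 31 of the 35 the antisense RNA was lower and the sense gene higher; in 4 it was the reverse. The antisense RNA alone passed in 36 pairs, the sense gene alone in 54, and neither in 26. These counts include antisense RNAs carried over the minimum by 1 group, among them TOLLIP-AS1, TDRKH-AS1 and PAPPA-AS1, and were not made without them. The median log2 change was -0.40 for the antisense RNAs and 0.05 for the sense genes.

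**Figure D4:**
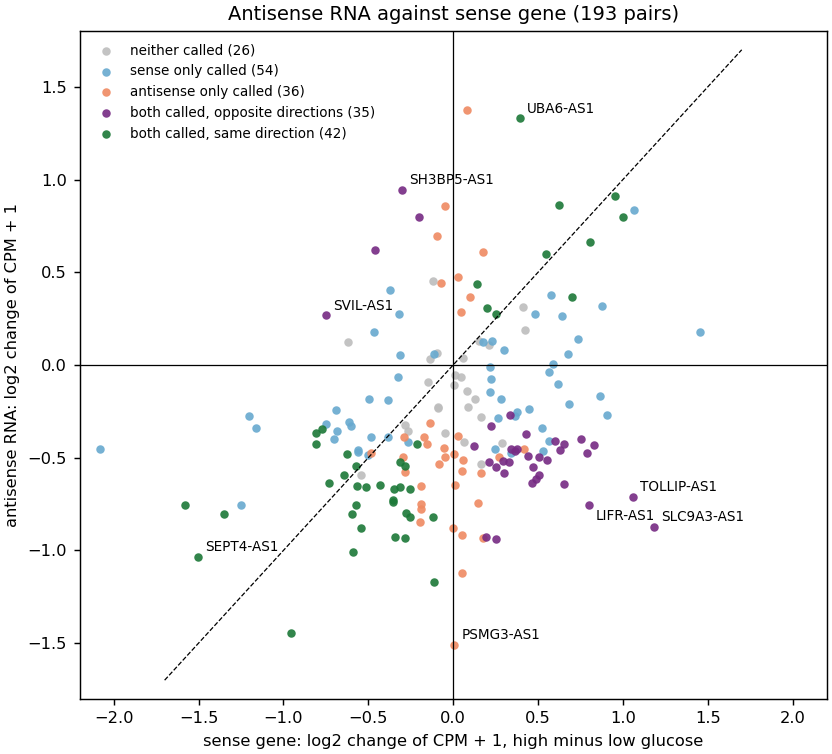
Each dot is 1 of 193 pairs, with the log2 change of the sense gene on the x axis and that of the antisense RNA on the y axis (both CPM + 1, high minus low glucose; dashed line, equal change). Green dots (42) passed in the same direction and purple dots (35) in opposite directions. Of the purple dots, 31 lie at the lower right, and PSMG3-AS1 lies at the bottom near a sense change of 0. Antisense RNAs carried over the minimum by 1 group are included.

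The changes of antisense RNA and sense gene went together only loosely, with a Spearman rho of 0.26 over the 193 pairs as a description. Among the pairs with both genes called, 54.5% went the same way. That majority did not hold in every setting: without LG2, 7 pairs rose together, 18 fell together and 30 went opposite ways, without LG4 the counts were 7, 21 and 30, and under median-of-ratios scaling they were 10, 23 and 33. For 3024 other pairs of genes on opposite strands, which overlap or start within 5 kb of each other, the share was 57.2% of 1159 and the rho 0.12. The antisense to sense log2 ratio itself was also tested (limma, adjusted over 3217 opposite-strand pairs, of which 57.6% were called). The antisense change was below the sense change in 89 pairs and above it in 28, with no difference called in 76. The scale used understates the change of the lower gene, which by mean CPM was the antisense RNA in 175 of the 193 pairs. These counts, and the ratio changes of single pairs, therefore mix differences in change with unequal understatement. With the smaller pseudocount of 0.1 CPM, the antisense change was below in 89 pairs and above in 22.

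The shares by the position of the genes are given without a test. In 143 pairs annotated exons of the 2 genes overlap on opposite strands (GENCODE 44 on GRCh37), and in 48 they do not. The source does not say that counting used the strand, and without it reads of overlapping exons cannot be told apart. Of the pairs with both genes called, 28 of 56 with exon overlap and 13 of 20 without it went the same way. The 32 pairs without exon overlap whose starts lie within 1000 bases of each other had 12 same and 5 opposite directions, with a rho of 0.44. In 657 other opposite-strand pairs of the same arrangement, 141 went the same and 128 opposite ways, with a rho of 0.03.

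SLC9A3-AS1 and SLC9A3, the gene of a sodium-hydrogen exchanger, had the largest opposing change. The antisense RNA fell from 42.7, 48.7, 46.5 and 44.6 CPM to 26.8, 27.8, 26.1 and 18.3 CPM (log2 change -0.87, adjusted p = 0.0013). SLC9A3 went from 8.48, 12.3, 9.84 and 10.9 CPM to 24.7, 26.8, 24.4 and 22.9 CPM (log2 change 1.18, adjusted p = 1.12e-04). At low glucose the antisense RNA had more CPM than its sense gene in every library; at high glucose the ranges met, and the log2 ratio changed by -2.05 (95% CI, -2.33 to -1.78; adjusted p = 1.89e-06). The exons overlap over 830 bases.

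TOLLIP-AS1 starts 137 bases from TOLLIP, a regulator of toll-like receptor signaling, with no overlap of the gene bodies. It was at 1.92, 1.74, 1.36 and 2.26 CPM in low and 0.988, 0.877, 0.495 and 0.533 CPM in high glucose, and its low glucose values alone carried it over the minimum of 1 CPM, so no p is given for it. TOLLIP went from 45.9, 45.2, 46.0 and 45.2 CPM to 116, 98.1, 91.0 and 81.7 CPM (adjusted p = 1.25e-04). Every high glucose library had less of the antisense RNA and more TOLLIP than every low glucose library.

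LIFR-AS1 went from 2.96, 3.55, 3.19 and 3.06 CPM to 1.04, 2.16, 1.35 and 1.48 CPM, while LIFR, the receptor of leukemia inhibitory factor, went from 116, 109, 109.8 and 110.0 CPM to 167, 196, 204 and 210.4 CPM, a ratio change of -1.55 (95% CI, -1.84 to -1.27; adjusted p = 9.15e-06). NIFK-AS1 went from 3.58, 3.81, 3.14 and 3.42 CPM to 1.76, 1.99, 2.06 and 1.69 CPM, while NIFK, a nucleolar protein gene, went from 32.8, 33.4, 37.8 and 34.3 CPM to 58.0, 53.6, 52.5 and 55.2 CPM, a ratio change of -1.29 (95% CI, -1.55 to -1.03; adjusted p = 1.49e-05). In both pairs neither gene's groups overlapped.

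Of the pairs with neighboring starts printed above, TAF1A-AS1 and COX10-AS1, both described because they opposed their sense genes, moved against them, and UBA6-AS1 and UBA6 both rose. PSMG3-AS1, which also starts close to its sense gene, fell while PSMG3 did not pass the test, as given above. TAF1A-AS1 was at 9.42, 6.46, 7.22 and 6.12 CPM in low and 5.15, 5.18, 5.53 and 5.07 CPM in high glucose (log2 change -0.40, adjusted p = 0.033). TAF1A, a subunit of an initiation factor of RNA polymerase I, went from 10.8, 11.8, 11.8 and 10.3 CPM to 19.1, 19.3, 19.5 and 20.3 CPM, and the log2 ratio changed by -1.15 (95% CI, -1.45 to -0.86; adjusted p = 5.23e-05). COX10-AS1, chosen outside the naming rule after its values were seen, was at 11.5, 10.9, 11.1 and 8.45 CPM and 5.15, 8.05, 7.01 and 7.29 CPM (log2 change -0.55, adjusted p = 0.017). COX10, an enzyme of heme a synthesis, was at 21.0, 20.04, 20.2 and 20.9 CPM and 28.2, 27.8, 28.9 and 30.6 CPM, and the log2 ratio changed by -1.02 (95% CI, -1.34 to -0.70; adjusted p = 1.89e-04). PIK3CD-AS2, ST7-AS1, TMEM9B-AS1 and PRKRA-AS1 were the remaining falls among the 10 largest opposing pairs, with ratio changes between -1.26 and -1.12.

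In the 4 reverse pairs the antisense RNA rose and the sense gene fell. SH3BP5-AS1 went from 7.86, 6.57, 6.24 and 7.01 CPM to 13.6, 14.8, 12.2 and 16.5 CPM, and SH3BP5, whose product binds the kinase BTK, from 27.0, 29.0, 28.5 and 28.5 CPM to 23.7, 19.8, 22.4 and 25.1 CPM, a ratio change of 1.25 (95% CI, 0.97 to 1.53; adjusted p = 2.84e-05). TDRKH-AS1 went from 0.638, 0.663, 0.565 and 1.03 CPM to 2.56, 1.59, 1.99 and 1.87 CPM beside TDRKH, a gene of the piRNA pathway; its high glucose values carried it over the minimum, so no p is given. For CARD8-AS1 and the inflammasome gene CARD8, chosen after their values were seen, it changed by 1.08 (95% CI, 0.66 to 1.50; adjusted p = 7.75e-04). SVIL-AS1 and SVIL, the gene of the actin-binding protein supervillin, lie apart, with starts 225353 bases from each other, and the ratio changed by 1.02 (95% CI, 0.76 to 1.28; adjusted p = 5.56e-05); the shared sequence of SVIL-AS1 is given above.

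**Figure D5:**
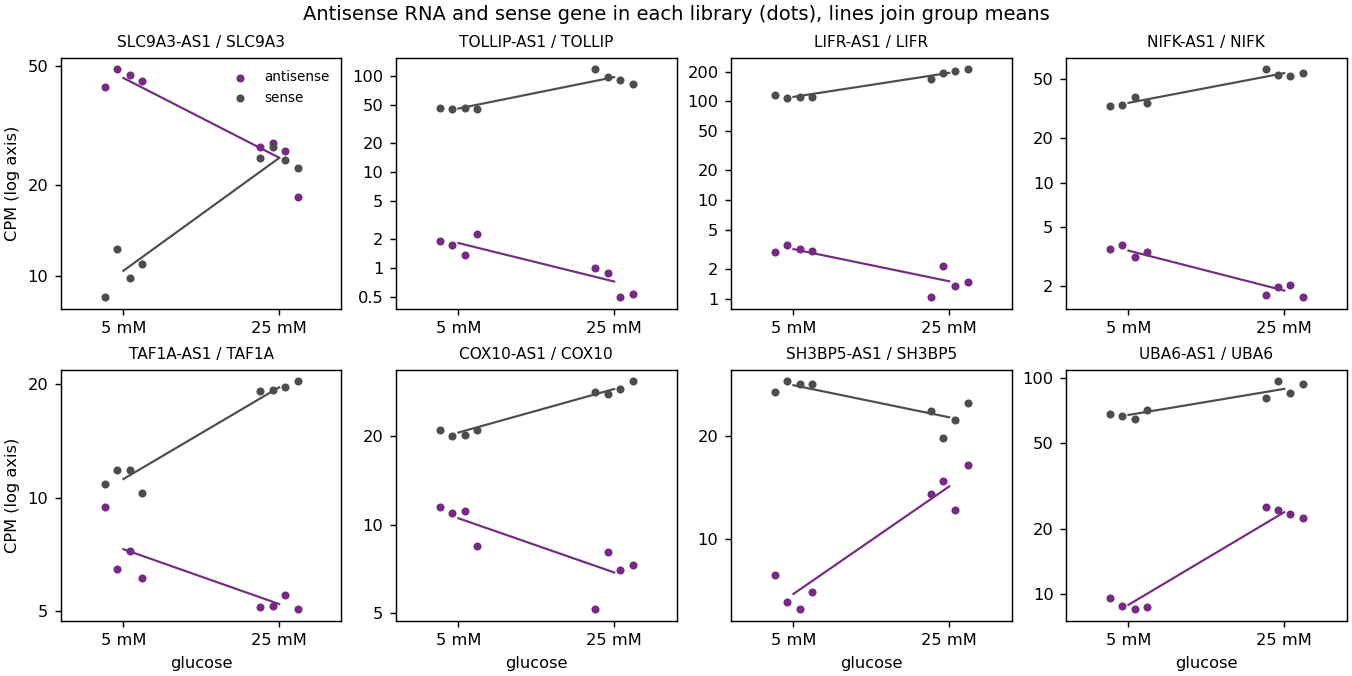
CPM of antisense RNA (purple) and sense gene (gray) in each library (dots, log axis) at 5 mM and 25 mM glucose for 8 pairs, with lines joining the group means. In 6 pairs the purple line falls while the gray line rises, SH3BP5-AS1 shows the reverse, and at UBA6 both rise, the antisense RNA from 8.91 to 23.9 CPM and UBA6 from 67.3 to 88.9 CPM.

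Pairs that rose together included UBA6-AS1, whose partner UBA6 went from 68.0, 66.5, 64.2 and 70.7 CPM to 80.5, 96.2, 85.2 and 93.7 CPM (log2 change 0.39, adjusted p = 0.0016). The antisense RNA rose by more, with a ratio change of 0.94 (95% CI, 0.71 to 1.17; adjusted p = 4.41e-05). SERTAD4-AS1 went from 5.33, 5.01, 3.31 and 3.57 CPM to 8.96, 7.73, 9.57 and 7.91 CPM and SERTAD4 from 61.3, 61.1, 61.8 and 56.7 CPM to 82.9, 92.5, 97.4 and 102 CPM, with no difference called between the changes (adjusted p = 0.20). PAPPA-AS1, beside a protease gene of the insulin-like growth factor system, and FOXD1-AS1, beside a forkhead factor gene, rose with their sense genes by 0.91 and 0.80 on the log2 scale, but PAPPA-AS1 was carried over the minimum by its high glucose values (0.465 and 1.78 CPM in the group means), and all of their annotated exons lie opposite exons of those genes.

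Among the 32 pairs that fell together, SEPT4-AS1 fell from 8.66, 7.39, 6.72 and 8.13 CPM to 2.75, 3.22, 3.24 and 3.84 CPM, and SEPT4, a septin gene, from 66.0, 61.7, 62.2 and 65.8 CPM to 21.2, 18.99, 23.8 and 23.8 CPM. There the sense gene fell by more on the scale of CPM + 1 (ratio change 0.47 (95% CI, 0.24 to 0.71; adjusted p = 0.0032)). That scale understates the change of the lower antisense RNA more than that of SEPT4, which adds to this difference. ZBED5-AS1 and SOCS2-AS1, opposite a suppressor of cytokine signaling, fell by 1.01 and 0.93 on the log2 scale, and their sense genes by 0.59 and 0.28. STARD4 fell by 0.11 beside the fall of 1.17 in STARD4-AS1.

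Of 36 LINC and antisense symbols listed for having been studied in tumors, 28 were in the table and 19 reached 1 CPM. Of the 19, 4 rose and 6 fell, where 29.5% of all genes of at least 1 CPM rose and 32.6% fell. Their median log2 change was -0.09. Newer names of the listed symbols were not looked up. CYTOR and NORAD, formerly LINC00152 and LINC00657, are therefore counted only among the RNAs without a systematic symbol below. LINC00963 fell from 42.8, 42.4, 41.1 and 44.7 CPM to 22.9, 24.8, 26.6 and 25.6 CPM (log2 change -0.75, adjusted p = 2.31e-05). LINC01116 fell from 10.9, 9.11, 9.43 and 9.69 CPM to 5.65, 4.22, 5.11 and 4.62 CPM (log2 change -0.87, adjusted p = 2.54e-04), and LINC00662 from 58.3, 57.5, 54.2 and 55.1 CPM to 42.8, 37.3, 35.1 and 35.0 CPM (log2 change -0.58, adjusted p = 3.52e-04). MCM3AP-AS1, TTN-AS1 and TMPO-AS1 fell by 0.51, 0.47 and 0.44 on the log2 scale. LINC00460 rose from 1.58, 1.24, 1.44 and 2.04 CPM to 3.46, 2.71, 2.97 and 2.58 CPM (log2 change 0.61, adjusted p = 0.0039) and LINC00511 by 0.30 on the log2 scale (adjusted p = 0.0075); FGD5-AS1 and OIP5-AS1 are given above. For 9 the test was not passed, among them CDKN2B-AS1, known as ANRIL, with 6.29 ± 0.660 to 5.19 ± 0.873 CPM (SD, n = 4; 95% CI of the log2 change, -0.52 to 0.036), and PSMA3-AS1 and NNT-AS1, with log2 changes of 0.040 (95% CI, -0.16 to 0.24) and 0.053 (95% CI, -0.14 to 0.24).

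Of 8 LINC symbols listed because their RNA is known to encode a small protein, 2 were in the table under that symbol. Both passed the test, as did 62.1% of all genes of at least 1 CPM. LINC00467, which encodes a mitochondrial micropeptide, fell from 10.2, 9.69, 11.6 and 11.5 CPM to 6.71, 6.14, 6.43 and 5.24 CPM (log2 change -0.72, adjusted p = 5.40e-04). LINC00665 was at 29.9, 36.5, 31.5 and 32.9 CPM and 42.3, 36.98, 42.0 and 36.97 CPM (log2 change 0.27, adjusted p = 0.022). Its groups nearly met, 60.2% of its 31-base words are shared with other genes, and its call was lost without LG1, LG3, HG1 or HG3. Of 13 HOX cluster antisense RNAs listed, 10 were in the table and 2 reached 1 CPM. HOXA11-AS, whose symbol has no closing digit and is outside the naming rule, fell from 7.77, 4.94, 6.59 and 6.403 CPM to 1.84, 2.30, 3.09 and 1.97 CPM, with no overlap (log2 change -1.17, adjusted p = 8.28e-04). HOXA-AS2, the other, was at 2.18 ± 0.339 to 1.93 ± 0.310 CPM (SD, n = 4; adjusted p = 0.42), with a 95% CI of -0.38 to 0.13 for its log2 change.

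Long noncoding RNAs without a systematic symbol were set beside these from a list of 34, of which 28 reached 1 CPM. Of the 28, 11 rose and 12 fell, where 29.5% of all genes of at least 1 CPM rose and 32.6% fell. MALAT1, a nuclear RNA of splicing speckles, fell from 139.6 ± 9.25 to 82.2 ± 9.05 CPM (SD, n = 4; log2 change -0.76, adjusted p = 3.69e-04), and NEAT1, the scaffold of paraspeckles, from 239 ± 18.1 to 123 ± 13.5 CPM (log2 change -0.95, adjusted p = 1.49e-04). LINC-PINT, a LINC symbol without digits, rose from 6.60 ± 1.04 to 18.3 ± 2.14 CPM (log2 change 1.35, adjusted p = 1.23e-04), and CYTOR from 79.8 ± 1.76 to 156 ± 20.9 CPM (log2 change 0.95, adjusted p = 1.46e-04). Taken as 1 list, the 28 thus showed no single direction.

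Of the 6 words searched in the promoters, the CCAAT box differed most in share between RNAs that rose and fell. CCAAT was found in the windows of 19 of 32 RNAs that rose (59.4%), 42 of 130 that fell (32.3%) and 36 of 107 not called (33.6%), against 35.7% of 27305 RefSeq promoters. The GC box was in 55.4% of the 269 windows, against 44.6% of all, and in 50% of the windows of RNAs that rose and 60.8% of those that fell. E box matches were in 8.55% of the 269 and 7.43% of all, AP-1 matches in 7.06% and 7.76%, TATA box matches in 8.18% and 12.0%, and CRE matches in 3.72% and 1.98%. Between the 32 that rose and the 130 that fell, E box matches were in 15.6% and 7.69%, and AP-1 matches in 15.6% and 5.38%. TATA box matches were in 6.25% and 9.23% of them, and CRE matches in 0% and 3.08%. The 15.6% for E box and for AP-1 were 5 windows each. The median window held 22 CG dinucleotides, against 14 over all promoters. A match is a description of letters and not a binding site, and no test was made.

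Some values rest on shared sequence or on uneven libraries. Words of 31 bases in the transcripts of each of 363 RNAs were looked up in the transcripts of all other genes on the same strand, and in 41 RNAs over 20% of the words were shared, in 23 over 50%. The 322 RNAs at or under 20% held 41 of the rises and 156 of the falls. ZNF433-AS1 and ALOX12-AS1, among the largest rises, shared 23.9% and 23.1%. DDIT4-AS1 showed the widest spread, at 6.72, 2.14, 0 and 0 CPM in low and 0.0219, 0, 0 and 1.91 CPM in high glucose. RNF185-AS1 showed the next, at 0.886, 0.707, 0.2005 and 0.175 CPM and 0, 1.995, 2.70 and 3.15 CPM. Both were named after their values were seen, and both had overlapping groups. DDIT4-AS1 reached the minimum only through its low and RNF185-AS1 only through its high glucose values, so no p is given.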

How the data were processed

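The data were RNA-seq libraries of MDA-MB-157 cells, 4 at 5 mM and 4 at 25 mM glucose. The authors deposited a table of normalized CPM values per gene. The submitters' processing notes name edgeR and hg38; the aligner for these libraries and the use of strand in counting are not given in the sources used here. The study's methods describe weighted scaling (TMM) and a minimum CPM. That minimum cannot have been applied to these 8 libraries alone, since 65 LINC and antisense genes were at 0 in every library. Low values lay on steps of 1 read, but only 72.0% to 73.3% of values below 200 reads were whole, so no count test was run. Per library, these steps gave the depth; the 3-read floors cover counting error only.

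Of 21077 rows, 18 for the Y copies of shared X and Y genes were left out, and 21059 genes were tested with limma 3.58.1 in R 4.3.3 (moderated test with trend, 2-sided, on log2(CPM + 1), no covariate), Benjamini-Hochberg adjusted. The fit was tested on simulated data. The members and lists were chosen with earlier results of these data known. Gene types, lengths and overlaps came from GENCODE 44 on GRCh37, matched by gene ID for 363 members; promoters came from RefSeq on GRCh38.p14. Ratios were fitted per opposite-strand pair. Named were the 10 largest rises and falls without overlap between groups, the 10 highest per kilobase, called antisense pairs (up to 6 rises, 6 falls and 10 opposing), list members and the 3 genes on each side of the minimum; others are marked in the text. One RNA that this rule names is not reported here. Alternatives were a pseudocount of 0.1 CPM, testing genes of at least 1 CPM, median-of-ratios scaling, quantile normalization, a replicate block, removal of the length trend, leaving out each library, minimum means of 0.5 and 5 CPM, and pairs without exon overlap. Python 3.11.15 with pandas 2.3.3, numpy 2.4.6 and matplotlib 3.10.9 was used.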

Additional observations from a re-analysis of the deposited data

Results flagged for a closer look

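In 6 of the 130 groups of 4 libraries examined for the named RNAs, 1 library lay far from the other 3, where its gap to the nearest divided by the range of the group passed Dixon's 95% critical value; chance alone would mark about 6.5. LINC02019 had a ratio of 0.876 at high glucose, where HG3 was at 1.48 CPM and the others between 2.49 and 2.63 CPM. PAPPA-AS1 had 0.927, where HG1 was at 2.83 CPM and the others between 1.37 and 1.48 CPM. MAPKAPK5-AS1 had 0.897, where HG1 was at 11.6 CPM and the others between 9.66 and 9.87 CPM. SBF2-AS1 had 0.864, where HG3 was at 6.19 CPM and the others between 4.07 and 4.35 CPM. PSMA3-AS1 had 0.8293, where HG4 was at 27.3 CPM and the others between 21.3 and 22.3 CPM. CDKN2B-AS1 had 0.976 at low glucose, where LG4 was at 7.28 CPM and the others between 5.94 and 5.97 CPM. Of these 6 RNAs, LINC02019 and PAPPA-AS1 reached the minimum mean of 1 CPM only through their high glucose values, so no test between groups is given for them. The others did not pass the test between groups.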

How the results depend on the processing

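Of the 216 called RNAs, between 173 and 208 were also called under each other setting, and no shared call changed direction. Counts of rises and falls stayed within 1.5 times of those in the report except as follows. Opposing pairs numbered 22 under quantile normalization and 26 to 38 when 1 library was left out, against 35, and pairs that fell together 18 to 33, against 32, with 18 without LG2, 21 without LG4 and 20 without HG2. Only pairs without exon overlap gave 3 that rose together, 10 that fell together and 7 opposing. A minimum mean of 5 CPM kept 120 RNAs, of which 25 rose and 63 fell. The rise among small-protein LINC RNAs, LINC00665, was called 0 times with the replicate block, and 0 or 1 times when 1 library was left out. Same-numbered libraries of the 2 groups did not deviate together (correlations of -0.040 to 0.069), so the numbers were not taken to pair them; the replicate block gave 44 rises and 148 falls, with 180 of the 216 calls kept.

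The sign of some uncalled RNAs changed, as log2 changes. Median-of-ratios scaling gave 0.027 for LINC00680 and 0.0025 for LINC00857. Quantile normalization gave 0.12 for LINC00680, 0.0097 for HOXA-AS2, 0.0019 for LINC00472, 0.097 for LINC00857, 0.046 for FOXD2-AS1, 0.033 for MAPKAPK5-AS1 and 0.12 for SBF2-AS1. Removing the length trend gave 0.0042 for LINC00680, 0.0014 for HOXA-AS2 and 0.017 for LINC00857. Leaving out 1 library gave -0.038 to 0.0089 for LINC00680, -0.15 to 0.036 for LINC00857 and -0.035 to 0.078 for PSMA3-AS1. The cause was not tested. Depth limits RNAs near 1 CPM, where 3 reads amount to 0.212 to 0.267 CPM.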

Other observations

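Among the 18 RNAs of at least 20 CPM, 5 not named above also passed the test, chosen here after their values were seen for their level. LINC00205 fell from 68.4, 72.5, 70.8 and 76.0 CPM at low to 31.6, 36.7, 37.3 and 38.4 CPM at high glucose (log2 change -0.98, adjusted p = 2.40e-05), and LINC00847 from 27.8, 28.1, 27.2 and 26.5 CPM at low to 13.1, 14.5, 14.2 and 15.2 CPM at high glucose (log2 change -0.90, adjusted p = 9.76e-06). ZNF667-AS1 rose from 45.8, 50.2, 46.9 and 49.6 CPM at low to 62.05, 55.6, 56.6 and 59.3 CPM at high glucose (log2 change 0.27, adjusted p = 0.002), and OTUD6B-AS1 from 38.7, 37.4, 34.0 and 38.2 CPM at low to 48.6, 45.9, 50.1 and 47.9 CPM at high glucose (log2 change 0.37, adjusted p = 5.77e-04). The groups of these 4 did not overlap, and neither did those of LINC01578 below. LINC01578, renamed CHASERR and known to lie beside the chromatin remodeler gene CHD2, rose from 24.8, 23.1, 25.8 and 21.8 CPM at low to 33.0, 29.2, 28.1 and 27.3 CPM at high glucose (log2 change 0.29, adjusted p = 0.015).

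The symbol of a row is not always its present class. In GENCODE 44, 348 of the 366 were typed as long noncoding RNAs, 12 as transcribed pseudogenes, 2 as protein-coding, 1 as to be checked by experiment, and 3 were not found. NCBP2-AS2, one of the protein-coding rows, rose from 10.8, 7.95, 8.49 and 9.03 CPM at low to 15.2, 11.2, 12.9 and 11.3 CPM at high glucose (log2 change 0.44, adjusted p = 0.022). LINC02203, the other, fell from 3.23, 2.87, 3.38 and 2.35 CPM at low to 1.96, 1.45, 2.13 and 1.95 CPM at high glucose (log2 change -0.46, adjusted p = 0.014), with 99.9% of its 31-base words shared with other genes. Of the 18 rows outside the long noncoding type, 4 rose and 3 fell.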
